A study of Mus musculus with 8 samples.

Results

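The 7 genes examined here, Pdgfrb, Rgs5, Vtn, Acta2, Tagln, Kcnj8 and Myl9, are transcripts of the mural cells of blood vessels, and they were taken by gene name from the 13996 genes with values, where each name occurs in 1 row. RNA was sequenced from the brain cortex of male C57BL/6 mice, with 1 library from each of 8 mice. The 4 normal mice were given a conventional diet and the other 4 a diet with 60% fat by weight (HFD mice), for 8 weeks from 8 weeks of age, and cortexes of both groups were taken at 16 weeks under ether. All mice were wild type and no mice were pooled. Values are FPKM, counts of fragments scaled by transcript length and by the mapped reads of the library, which allow comparison between genes of different length.

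Mural cells wrap the endothelial tube of a vessel. Pericytes sit on capillaries within the basement membrane and take part in the blood-brain barrier, and they are recruited in development by PDGF-B from the endothelium acting on the receptor Pdgfrb. Vascular smooth muscle cells surround arterioles and contract through actin and myosin, and the genes of this machinery are under the control of serum response factor (Srf) and its cofactors of the myocardin family. Pdgfrb, Rgs5 (a regulator that shortens G protein signaling), Vtn (vitronectin, an adhesive matrix protein that pericytes secrete in brain) and Kcnj8 (the pore subunit Kir6.1 of an ATP-sensitive potassium channel) stand here for pericytes. Acta2 (smooth muscle actin), Tagln (the actin-binding protein transgelin) and Myl9 (a regulatory light chain of myosin) are the contractile genes.

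All 7 genes were detected in all 8 mice and passed the filter on low values (mean FPKM of at least 1 and no 0). Of the 7, Rgs5 was lower in HFD mice and 6 did not pass the test, which is limma on log2(FPKM + 0.1) over 13982 genes with an adjusted p below 0.05. The share called was thus 1 of 7, where 33.1% of all genes tested were called (15.3% as lower in HFD mice and 17.7% as higher). No gene of the 7 changed by more than 1.5 times, as 7.13% of all genes tested did with an adjusted p below 0.05. The median log2 difference of the 7 genes was -0.05, against 0.0031 over all genes tested. A negative sign was found for 6 of the 7, and for 49.4% of all genes tested, but the signs of Pdgfrb, Acta2 and Myl9 turned when 1 mouse was left out. For a lower value like that of Rgs5, fewer mural cells, less RNA per cell and differing tissue in the dissection cannot be told apart.

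The order of the levels was the same in both diets down to Myl9. Vtn was the most abundant, from 35.5 to 44.9 FPKM over the 8 mice, followed by Rgs5 from 23.1 to 34.3 and Myl9 from 10.9 to 14.2. Each of these lay above the next in 8 of 8 mice without overlap of their ranges. Acta2 (4.7 to 7) and Pdgfrb (5.1 to 6.7) did not differ beyond their spread, with Acta2 the higher in 3 of 8 mice. Tagln (1.9 to 3.3) and Kcnj8 (1.5 to 2.3) overlapped too, with Tagln the higher in 5 of 8 mice. By their mean FPKM over all mice, the 7 genes ranked from 1886 (Vtn) to 12177 (Kcnj8) among the 13982 genes tested. The rounding of the values to 0.1 FPKM is 4.88% of the mean of Kcnj8, the lowest of the 7 genes.

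**Figure D1:**
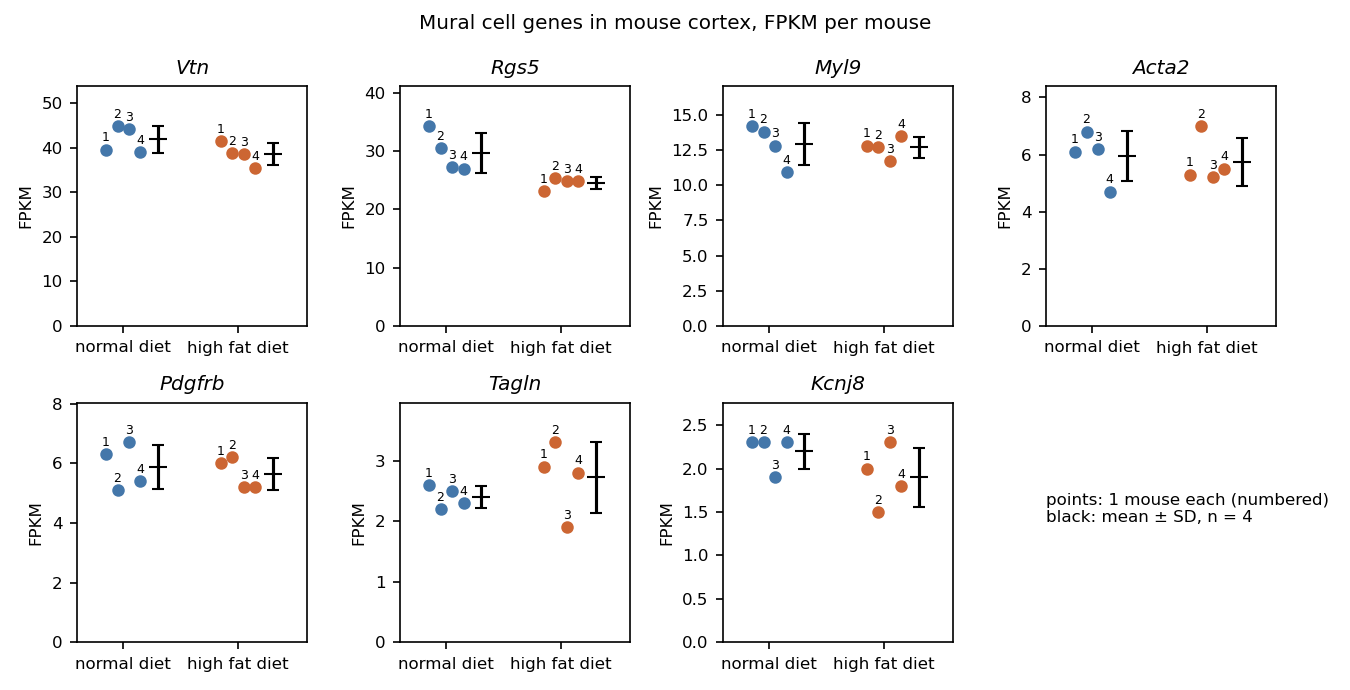
FPKM (y axis, from 0) of the 7 mural cell genes in each mouse on the normal diet (blue) and the high fat diet (orange), with the mouse number over each point and the mean ± SD of 4 mice in black. The diets do not overlap for Rgs5, where the HFD mice lie between 23.1 and 25.4, and they overlap for the other genes.

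Of the 4 genes that stand here for pericytes, Rgs5 was the 1 called between the diets. Its gene spans 169655501 to 169695813 of chromosome 1 (GRCm38, plus strand). Its FPKM was 34.3, 30.5, 27.2 and 27 in normal mice 1 to 4 and 23.1, 25.4, 24.8 and 24.8 in HFD mice 1 to 4. Every HFD mouse was below every normal mouse, which was so, in either direction, for 31.9% of all genes tested. The normal mice were also the more spread, at 29.8 ± 3.43 (SD, n = 4) against 24.5 ± 0.991 (SD, n = 4). The level of Rgs5 decreased by 0.27 on the log2(FPKM + 0.1) scale (-0.27, standard error 0.08, adjusted p = 0.0243 from limma, two-sided), and the 95% interval of the ratio between diets was 0.735 to 0.934. The exact two-sided permutation test of the same difference gave p = 0.0286, the smallest value that 4 against 4 mice allow. The call was lost without normal mouse 2 (-0.26, adjusted p = 0.0622 from limma) and without HFD mouse 1 (-0.24, adjusted p = 0.0665 from limma), and its adjusted p lay between 0.0155 and 0.0665 over the 8 fits that left out 1 mouse.

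Of 18 endothelial genes, 8 were called lower in HFD mice, as Rgs5 was, 1 was called higher and 9 did not pass. All 10 striatal genes tested and 4 of 7 cerebellar genes were also called lower, as 15.3% of all genes tested were. The part of these genes in the difference of Rgs5 was not tested. The fits below with list means as covariates do not test it, since the 3 means differ between the diets themselves. The summed FPKM of 18 endothelial genes, of which 0 were at 0 in any mouse, was 480.2 to 545.8 in normal mice and 424.2 to 449.7 in HFD mice. Bsg (basigin) alone made up 70.7% of the difference between the mean sums, and without it the sums of 17 genes were 195.5 to 224.6 and 179.1 to 194.6, still without overlap. Relative to Cldn5, the claudin of the endothelial tight junction, Rgs5 was 1.08 to 1.3 in normal mice and 1.12 to 1.47 in HFD mice, and these ratios overlapped. Cldn5 itself was called lower in HFD mice (-0.40, adjusted p = 0.00293 from limma), which raises these ratios there. Ratios to endothelial genes that did not pass were not taken. Relative to Pdgfrb, Rgs5 was 4.06 to 5.98 in normal mice and 3.85 to 4.77 in HFD mice, also with overlap. When the mean of the endothelial genes entered the model as a covariate, Rgs5 was at -0.11 (adjusted p = 0.749 from limma), in a fit where 12 genes of all those tested were called. With the mean of the striatal genes as covariate the sign of Rgs5 turned (0.55, standard error 0.32), in a fit that called no gene. With the mean of the cerebellar genes as covariate Rgs5 stayed called at -0.44 (adjusted p = 0.0457 from limma), in a fit that called 899 genes. Normal mice 1 and 2, with the highest Rgs5, also had the highest sums of 10 striatal genes, which ranged from 250.1 to 460.2 in normal mice and from 81 to 89.6 in HFD mice. The sums of endothelial genes (522.9 and 545.8) and of blood genes (377.5 and 479.7) were highest in normal mice 1 and 2 too. Those of cerebellar genes were highest in normal mice 2 and 3.

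Vtn, from chromosome 11 (78499091 to 78502324, plus strand), did not pass the test. It was 39.6, 44.9, 44.2 and 39 FPKM in the normal mice and 41.5, 38.8, 38.6 and 35.5 in the HFD mice. High fat diet fed mice 2, 3 and 4 were below the lowest normal mouse, and mouse 1 lay within the normal range. The means were 41.9 ± 3.05 and 38.6 ± 2.45 (SD, n = 4 each), with a log2 difference of -0.12 (standard error 0.06, adjusted p = 0.187 from limma) and a 95% interval of the ratio from 0.833 to 1.02.

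Pdgfrb was at nearly the same level on both diets. It was 6.3, 5.1, 6.7 and 5.4 FPKM in the normal mice and 6, 6.2, 5.2 and 5.2 in the HFD mice, so that each HFD mouse fell inside the normal range. The log2 difference was -0.05 (standard error 0.10, adjusted p = 0.728 from limma), with a ratio between 0.822 and 1.13 in its 95% interval. The sign turned without normal mouse 3 (0.01), so no direction can be given for Pdgfrb.

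Kcnj8, from chromosome 6 (142564837 to 142571614, minus strand), was 2.3, 2.3, 1.9 and 2.3 FPKM in the normal mice and 2, 1.5, 2.3 and 1.8 in the HFD mice. HFD mice 2 and 4 were below the normal range and HFD mouse 3 equaled its top. Its log2 difference of -0.21 was close to that of Rgs5 in size but came with a standard error of 0.14 (adjusted p = 0.272 from limma) and a 95% interval of the ratio from 0.692 to 1.08. It was -0.11 without HFD mouse 2 and -0.31 without HFD mouse 3.

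The 3 contractile genes did not pass the test, and their differences had both signs. Acta2 (chromosome 19, 34241090 to 34255590, minus strand) was 6.1, 6.8, 6.2 and 4.7 FPKM in the normal mice and 5.3, 7, 5.2 and 5.5 in the HFD mice. The means were 5.95 ± 0.889 and 5.75 ± 0.843 (SD, n = 4 each), with normal mouse 4 the lowest and HFD mouse 2 the highest of all 8 mice. The diets differed by -0.05 on the log2 scale (standard error 0.13, adjusted p = 0.806 from limma), with a ratio between 0.792 and 1.18 in the 95% interval. Without normal mouse 2 its sign turned (0.02), so no direction can be given.

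Myl9 (chromosome 2, 156775420 to 156781658, plus strand) was 14.2, 13.8, 12.8 and 10.9 FPKM in the normal mice and 12.8, 12.7, 11.7 and 13.5 in the HFD mice. All HFD mice lay within the normal range. The diets differed by -0.02 on the log2 scale (standard error 0.09, adjusted p = 0.859 from limma). The 95% interval of the ratio, 0.862 to 1.12, reaches to both sides of 1. The sign of Myl9 turned without normal mouse 1 (0.02), normal mouse 2 (0.01) or HFD mouse 3 (0.015).

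Tagln (chromosome 9, 45929619 to 45936058, minus strand) was 2.6, 2.2, 2.5 and 2.3 FPKM in the normal mice and 2.9, 3.3, 1.9 and 2.8 in the HFD mice. High fat diet fed mice 1, 2 and 4 were above all normal mice, while mouse 3 was below them. The SD was 0.591 on the high fat diet and 0.183 on the normal diet, and the log2 difference of 0.15 (standard error 0.16, adjusted p = 0.482 from limma) had the widest 95% interval upward, with a ratio from 0.87 to 1.42. It was 0.31 without HFD mouse 3 (adjusted p = 0.0638 from limma) and 0.05 without HFD mouse 2. In the annotation, 108 bases of Tagln overlap Pcsk7 and 3627 bases the antisense gene Gm48529, both on the opposite strand, and Gm48529 is not among the values used here. The libraries were stranded, but the sources used here do not state whether strand was used in counting.

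**Figure D2:**
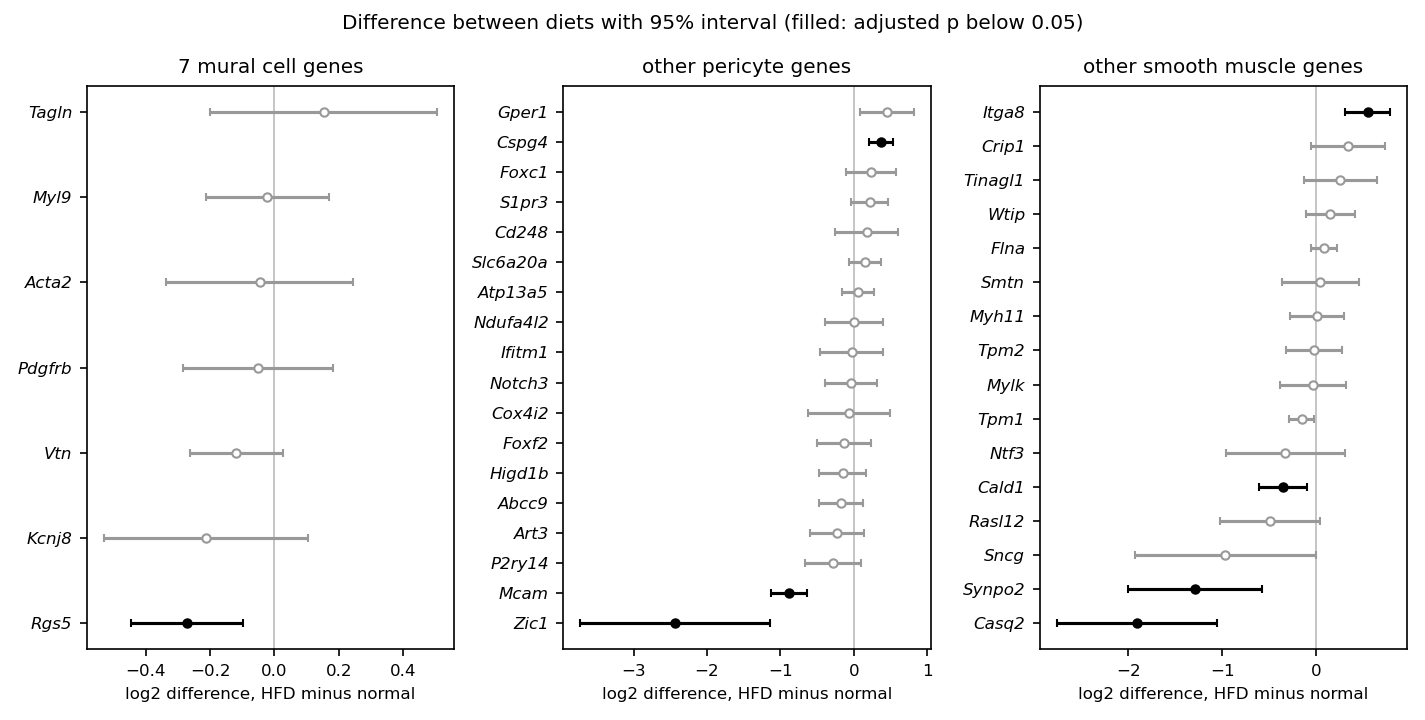
Log2 difference between diets (x axis, high fat diet minus normal diet, on the log2(FPKM + 0.1) scale, with a separate range in each panel) with its 95% interval for the 7 mural cell genes, 18 other pericyte genes and 16 other smooth muscle genes. Filled points mark an adjusted p below 0.05, which Rgs5 reached among the 7, 3 genes among the other pericyte genes and 4 among the other smooth muscle genes.

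The variation between mice of the same diet is described by the correlation of the genes. With the mean of each diet removed, Pearson's r over the 8 mice was 0.66 for Acta2 and Myl9, 0.44 for Acta2 and Tagln and 0.40 for Tagln and Myl9. For the 6 pairs of pericyte genes it lay between -0.59 and 0.24 with a median of -0.03. Rgs5, placed here with the pericyte genes, was at 0.66 with Myl9, 0.48 with Acta2 and 0.10 with Tagln. With Pdgfrb, Vtn and Kcnj8 it was at 0.0088, -0.26 and 0.09. The 12 pairs of a contractile with a pericyte gene spanned -0.80 to 0.66 (median 0.18), from Tagln and Kcnj8 to Rgs5 and Myl9, with 0.64 for Pdgfrb and Tagln, so pairs across the sets were as high as those within the contractile genes. The values of a pair come from the same libraries and rest on 8 mice, of which HFD mouse 3 had the lowest Tagln and, with 3 normal mice, the highest Kcnj8, and mouse 2 the highest Tagln and the lowest Kcnj8. Normal mouse 4 was the lowest normal mouse for Acta2, Myl9, Rgs5 and Vtn.

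As a description of the 2 groups, the mean of log2(FPKM + 0.1) over the 4 pericyte genes was 3.44 to 3.59 in normal mice and 3.28 to 3.4 in HFD mice, without overlap. Among the 4, Rgs5 alone was without overlap, as 31.9% of all genes tested were, and the others were not called. The mean over the 18 other pericyte genes tested did overlap, at 1.18 to 1.42 in normal mice and 1.10 to 1.22 in HFD mice. Such means over endothelial, astrocyte, oligodendrocyte, blood, striatal, cerebellar and cortical neuron genes did not overlap. Those over microglia, meningeal fibroblast, choroid plexus and oligodendrocyte precursor genes did. The mean over the 3 contractile genes was 2.33 to 2.63 and 2.32 to 2.76, with full overlap. Their difference, contractile minus pericyte, was between -1.11 and -0.92 in normal mice and between -1.07 and -0.56 in HFD mice. These levels overlapped, and a shift of contractile against pericyte genes could not be told from the spread between mice.

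**Figure D3:**
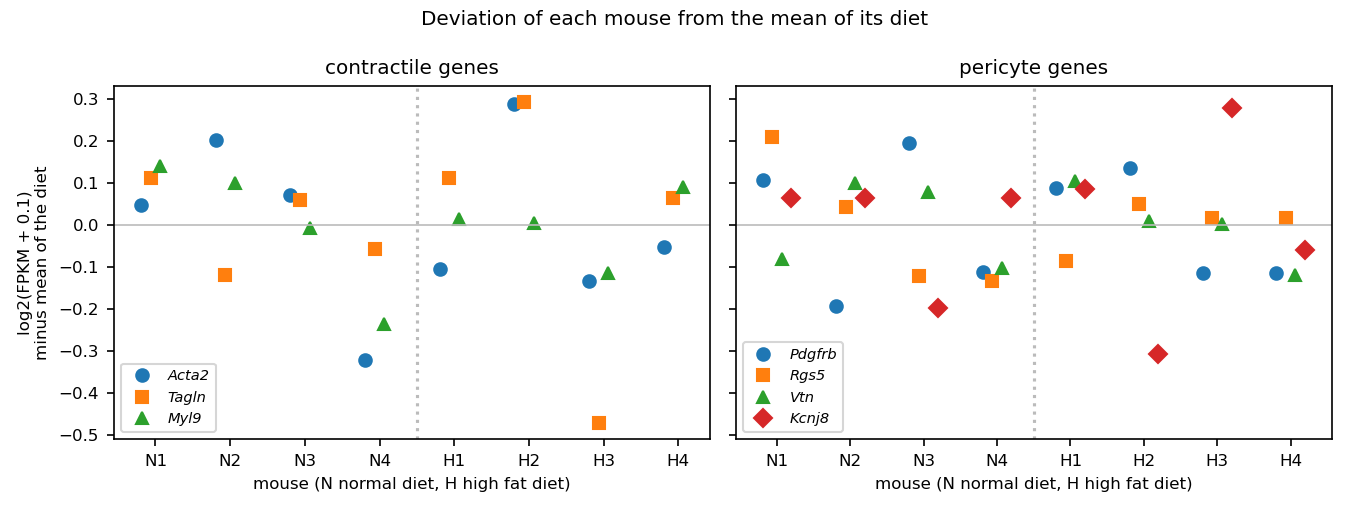
Deviation of each mouse from the mean of its own diet (y axis, on the log2(FPKM + 0.1) scale) for the 3 contractile genes (left) and the 4 pericyte genes (right), with normal mice N1 to N4 and HFD mice H1 to H4. Tagln and Kcnj8 deviate in opposite directions in H2 and H3, and Acta2 and Myl9 are lowest in N4.

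The genes whose diet-centered pattern was most like the mean z-score of the contractile genes, out of 13972 compared over 8 mice, were RP23-184I13.8 (Pearson's r 0.98), Rpl30 (0.96), Desi2 (0.95), Dopey1 (0.94) and Igf2 (0.94). For the pericyte genes they were Armc5 (0.98), Zcchc8 (0.97), Trim25 (0.97), Gm25291 (0.96) and Tjap1 (0.96). None of these 10 genes is in the mural lists examined, and Igf2, a growth factor, is in the list of meningeal fibroblasts. Each r is among the highest of 13972 over 8 mice, where high values arise by selection, and no r was tested. The pericyte genes had little pattern in common, as their 6 pairs had a median r of -0.03.

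Other genes known from pericytes mostly did not pass the test, as Pdgfrb did not. Of 27 listed, 18 were tested, and 2 fell and 1 rose (16.7% called, against 33.1% of all genes), with a median log2 difference of -0.03. Abcc9, the SUR2 subunit that pairs with Kcnj8 in the channel, was 2 ± 0.294 and 1.75 ± 0.173 FPKM (log2 difference -0.18, adjusted p = 0.331 from limma). Atp13a5, a transporter gene known as a marker of brain pericytes, was 2.83 ± 0.299 and 2.93 ± 0.126 (adjusted p = 0.697), and Notch3, the mural Notch receptor, was 1.3 ± 0.245 and 1.25 ± 0.1 (adjusted p = 0.868, both from limma).

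The pericyte-listed genes that passed were Mcam, Cspg4 and Zic1, of which Cspg4 and Zic1 are known from other cells too. Mcam (CD146, an adhesion molecule of vessels) was 11.1, 12, 12.6 and 9.2 FPKM in the normal mice and 5.2, 6.7, 6.1 and 6.1 in the HFD mice. It decreased by 0.88 on the log2 scale (-0.88, standard error 0.11, adjusted p = 0.0009 from limma), and kept its call in 8 of 8 fits that left out 1 mouse. Cspg4 (NG2), also a marker of oligodendrocyte precursors, rose from 3.05 ± 0.129 to 3.98 ± 0.0957 (log2 difference 0.37, adjusted p = 0.00493 from limma). Zic1, a transcription factor also of cerebellar granule cells, fell with a log2 difference of -2.43 (adjusted p = 0.0118 from limma). It was 5.7, 39.9, 49.9 and 12.5 FPKM in the normal mice and 3.3 to 3.7 in the HFD mice. Normal mice 2 and 3 also had the highest summed FPKM of 7 cerebellar genes (34.8 to 266.6 in normal mice, 39 to 43.2 in HFD mice), and the part of these in the difference of Zic1 was not tested.

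Smooth muscle genes beyond the 7 showed a similar count. Of 26 listed, 16 were tested, and 3 fell and 1 rose (25% called, against 33.1% of all genes). The median log2 difference was -0.03. Myh11, the heavy chain of smooth muscle myosin, was 1.77 ± 0.222 and 1.77 ± 0.15 FPKM, with a log2 difference of 0.0043 (adjusted p = 0.983 from limma). Mylk, the kinase of the myosin light chain, was 1.85 ± 0.311 and 1.8 ± 0.271 (adjusted p = 0.88 from limma). The genes that fell were Casq2, a calcium-binding protein of muscle stores (3.85 ± 2.25 to 0.825 ± 0.15), Synpo2, an actin-associated protein (3.38 ± 1.53 to 1.2 ± 0.0816), and Cald1, caldesmon (6.75 ± 0.866 to 5.25 ± 0.686). Their adjusted p from limma was 0.00557, 0.0138 and 0.0384. Casq2 and Synpo2 were highest in normal mice 2 and 3, as the cerebellar genes were, and Cald1 lost its call without normal mouse 2 or 3 or HFD mouse 1, 3 or 4 (adjusted p up to 0.0995 from limma). Itga8, an integrin of smooth muscle, rose from 1.8 ± 0.115 to 2.67 ± 0.263 (log2 difference 0.54, adjusted p = 0.00544 from limma).

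Ligands and receptors through which endothelium and mural cells signal to each other were examined as a list of 25. Of these, 21 were tested and 4 fell (19% called, against 33.1% of all genes), with a median log2 difference of -0.12. Pdgfb, the endothelial ligand of Pdgfrb, was 7.9 ± 1.01 FPKM in normal mice and 9.13 ± 0.574 in HFD mice (log2 difference 0.21, adjusted p = 0.119 from limma). Angpt1, a pericyte ligand of the endothelial receptor Tek, was 2.8 ± 0.648 and 2.03 ± 0.66 (adjusted p = 0.173), and Tek itself 4.67 ± 0.45 and 3.95 ± 0.129 (adjusted p = 0.0535, both from limma). The genes that fell were Tgfbr1, a TGF-beta receptor (-0.31, adjusted p = 0.0134), Hey1, a target of Notch (-0.27, adjusted p = 0.00367), Tie1, an endothelial receptor (-0.32, adjusted p = 0.0418), and S1pr1, a receptor for sphingosine 1-phosphate (-0.12, adjusted p = 0.0436, all from limma). The count of 4 was 2 without normal mouse 1 or HFD mouse 1, 2 or 3, and Tie1 lost its call in 6 of 8 such fits (all but those without normal mouse 2 or 4, adjusted p up to 0.108) and S1pr1 in 7 of 8 (all but that without normal mouse 4, adjusted p up to 0.102, both from limma).

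Regulators of contraction were examined beside the contractile genes. Of 24 listed (28 names, since 4 genes were listed under both an older and a newer symbol), 22 were tested. Of these, 6 rose and 5 fell (50% called, against 33.1% of all genes), with a median log2 difference of -0.0029. Mkl1 and Mkl2, cofactors of Srf that respond to actin, rose from 8.47 ± 1.16 to 13.7 ± 1.27 FPKM (log2 difference 0.69, adjusted p = 0.00165 from limma) and from 32.6 ± 6.07 to 50.1 ± 4.49 (0.63, adjusted p = 0.00532 from limma). Srf, named here after its values were seen, was 13.2, 12, 10.5 and 12.2 FPKM in the normal mice and rose to 14.2, 14.7, 14.4 and 13 in the HFD mice (0.23, adjusted p = 0.0364 from limma). The call of Srf was lost in 6 of 8 fits without 1 mouse (all but those without normal mouse 1 or HFD mouse 4, adjusted p up to 0.0962 from limma). Ednrb, an endothelin receptor abundant in astrocytes, fell from 19.1 ± 3.79 to 11.7 ± 0.753 (-0.68, adjusted p = 0.00404 from limma). Itpr1, a calcium release channel abundant in Purkinje cells, fell from 160.3 ± 29.1 to 119 ± 15.1 (-0.42, adjusted p = 0.0332 from limma), and its call was lost without normal mouse 2 or 3 or HFD mouse 1, 2 or 4. Many of these regulators are expressed by neurons and glia as well. Mkl1 and Mkl2 were higher in normal mice 1 and 4 than in 2 and 3, as the sums of cortical neuron genes were. The part of these in the differences of Mkl1 and Mkl2 was not tested. The count of 11 was 4 without normal mouse 2 or 3, 5 without HFD mouse 1 or 2 and 6 without HFD mouse 3 or 4.

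Srf binds the CArG box, and RefSeq promoter windows of GRCm38.p6 (250 bases before to 50 after the start) were searched for it on both strands. Windows were matched for 5 of the 7 genes (Rgs5, Myl9, Kcnj8, Vtn and Acta2). A match was found in 1 of these, that of Myl9, from 161 to 152 bases before the start, and 1.63% of all 32851 windows held a match. The sequence around the box of Myl9 is shown with the box in capitals, at chr2:156775293-156775322 on the plus strand.
Myl9: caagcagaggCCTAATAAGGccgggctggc
A match describes these letters and is not evidence of binding. The other 4 windows gave no match in this search, which says nothing about boxes that differ from the pattern searched or about Srf at those genes.

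Partners of Kcnj8 and Vtn were also examined. Of 3 further subunits of ATP-sensitive channels, 2 rose, where 33.1% of all genes were called. Those used by neurons, Kcnj11 (13.8 ± 1.27 to 17.4 ± 2.35 FPKM) and Abcc8 (7.12 ± 0.263 to 8.8 ± 0.906), rose with log2 differences of 0.32 and 0.30 (adjusted p = 0.033 and 0.0183 from limma), while Kcnj8 and Abcc9 had negative differences that did not pass. Neither call held without HFD mouse 2 (adjusted p = 0.0645 and 0.0559 from limma), and that of Kcnj11 was also lost without normal mouse 2 or 3 or HFD mouse 3. Of 12 genes of integrins and of the plasminogen system that vitronectin engages, 7 were tested. Of these, 3 fell and 1 rose, where 33.1% of all genes were called. Itgb1, the beta 1 integrin, fell from 22.5 ± 1.03 to 17.4 ± 0.499 (-0.37, adjusted p = 0.00113 from limma), and Plat, the tissue plasminogen activator, from 22.4 ± 2.11 to 13.2 ± 0.804 (-0.75, adjusted p = 0.000459 from limma). Itgb8 fell by 0.20 on the log2 scale (-0.20, adjusted p = 0.0207), and Plau, the urokinase, rose by 0.70 (adjusted p = 0.034, both from limma). Itgb8 lost its call without normal mouse 2 or HFD mouse 1, without either of which the count of 4 was 2, and Plau lost its call in 6 of 8 fits (all but those without normal mouse 1 or 4). Itgav, the main integrin subunit for vitronectin, was 19.7 and 20.9 FPKM in the means of the normal and HFD mice (adjusted p = 0.509 from limma).

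Close relatives of the 7 genes could share reads with them, since the sources used here do not state how reads matching several genes were counted, and the values of Acta2 and Myl9 are uncertain in this respect. Among the actins, Actg1 rose (186.7 ± 6.93 to 216.2 ± 9.21 FPKM, adjusted p = 0.0102), and so did Acta1 (4.2 ± 0.949 to 5.83 ± 0.486, adjusted p = 0.0314), although Acta1 lost its call in 5 of 8 fits without 1 mouse (without normal mouse 2 or 3 or HFD mouse 1, 2 or 3). Actb was at 906.3 ± 38.1 and 857.2 ± 36.9 (adjusted p = 0.33, all from limma). Acta2 was thus of the order of Acta1 and far below Actb and Actg1. The light chains Myl12a (16.9 ± 2.66 and 13.8 ± 1.2) and Myl12b (156.4 ± 3.65 and 154 ± 7.16) did not pass (adjusted p = 0.0651 and 0.721 from limma). Nor did Tagln2 (2.6 ± 0.392 and 2.52 ± 0.479) and Tagln3 (150.7 ± 3.28 and 148.1 ± 10.2), with adjusted p = 0.838 and 0.718 from limma. Pdgfra, the sister receptor of Pdgfrb and a marker of oligodendrocyte precursors, was 13.5 ± 0.512 and 14.2 ± 0.591 (adjusted p = 0.305 from limma). Among relatives of Rgs5, Rgs4 fell from 191.9 ± 44.4 to 122.7 ± 12.7 (-0.62, adjusted p = 0.0113) and Rgs8 from 40.9 ± 20.9 to 18.4 ± 1.94 (-1.01, adjusted p = 0.0336, both from limma). Rgs8 lost its call in 6 of 8 fits without 1 mouse (all but those without normal mouse 1 or 4). Rgs2 and Rgs16 did not pass (adjusted p = 0.657 and 0.138 from limma).

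The endothelial cells that mural cells cover gave 9 called genes of 18, with 8 lower and 1 higher (50%, against 33.1% of all genes). The median log2 difference was -0.21. Emcn (-0.54), Itm2a (-0.54), Slco1c1 (-0.45) and Cldn5 (-0.40) had the largest falls among the called genes (adjusted p = 0.0251, 0.00109, 0.00681 and 0.00293 from limma), beside -0.27 for Rgs5. Emcn lost the call without normal mouse 2 or 3 or HFD mouse 3 or 4. The 9 genes that did not pass ranged from -0.43 (Vwf) to 0.07 (Egfl7), with Pecam1 at -0.08 and Cdh5 at -0.0046. The 1 called higher was Ly6c1 (0.23). The counts of 1 of 7 and 9 of 18 were not tested against each other. Relative to Cldn5, itself among these falls, Pdgfrb was 0.205 to 0.269 in normal mice and 0.252 to 0.33 in HFD mice, with overlap.

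Genes of some other cell types in the dissected tissue moved strongly between the diets. Microglia, choroid plexus and meningeal fibroblast genes were called less often than the 33.1% of all genes tested. Their median log2 differences were 0.01, -1.55 and -0.13. All 10 oligodendrocyte genes tested, all 5 of blood and all 10 of striatum fell, with median log2 differences of -0.87, -0.68 and -1.95, and 7 of 10 genes of cortical neurons rose (median 0.59). Meningeal fibroblast genes gave 4 lower of 15 tested, microglia 0 of 8 (limma, 1 at an unadjusted p below 0.05), choroid plexus 2 lower of 9, astrocytes 3 lower and 1 higher of 8, and oligodendrocyte precursors 3 lower and 2 higher of 9. The summed FPKM of the choroid plexus genes was 351.5 to 742.2 in normal mice, 962 in HFD mouse 4 and 24.4 to 81.6 in the other HFD mice. Of 12 cerebellar genes 7 were tested, and 4 fell. Of 11 skeletal muscle genes, 3 were tested and 8, among them Ckm and Mylpf, are not among the values used here. The markers of cortical neurons were present in all mice, while striatal markers such as Drd2 (4.2 to 9.3 FPKM in normal mice, 0.3 to 0.7 in HFD mice) were present in the normal mice as well. The part of tissue composition in the values of the mural genes was not tested.

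**Figure D4:**
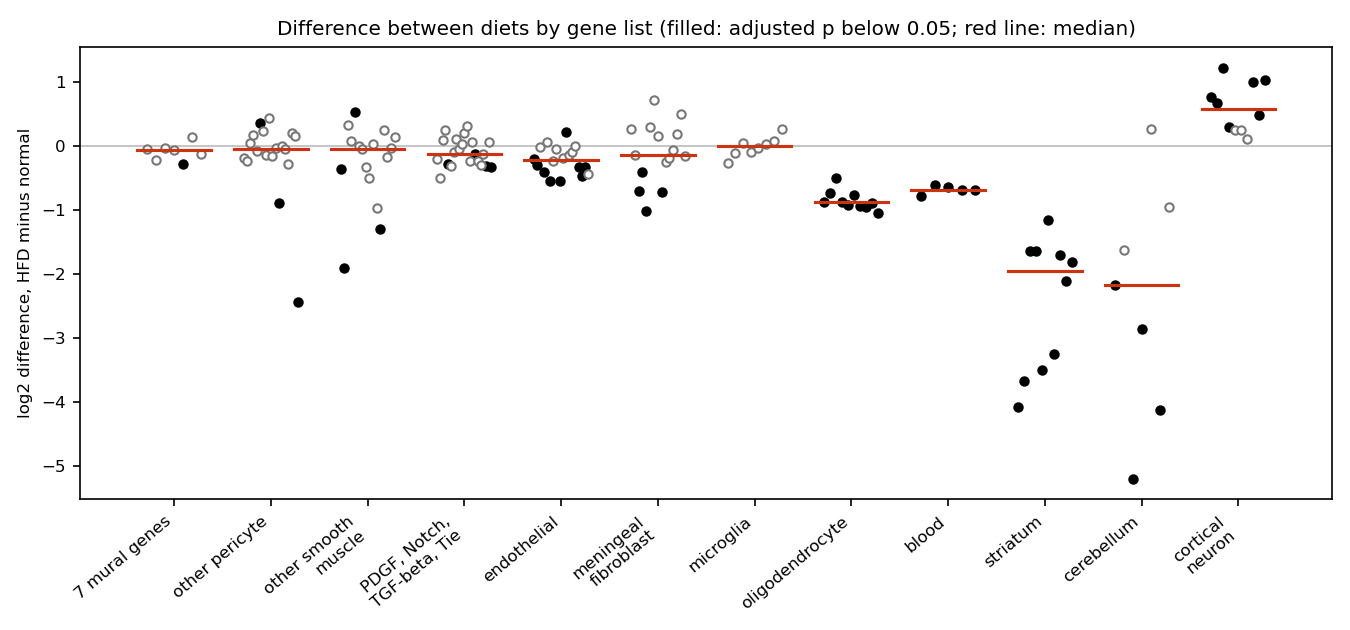
Log2 difference between diets (y axis, high fat diet minus normal diet, on the log2(FPKM + 0.1) scale) for each tested gene of 12 lists, filled where the adjusted p is below 0.05, with the median of each list in red. The medians of the 7 mural genes (-0.05), other pericyte genes (-0.03) and other smooth muscle genes (-0.03) lie near 0, while those of striatum (-1.95) and oligodendrocytes (-0.87) lie far below it.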

How the data were processed

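Cortex RNA of 8 mice, 4 on each diet, was depleted of rRNA (RIN above 9) and sequenced from both ends in 100 cycles. The authors used FastQC and Trimmomatic on the reads, STAR for alignment (mm10) and Cuffnorm with GENCODE M17 for the FPKM values, and the sources used here give no versions of these tools. The deposited FPKM values are rounded to 0.1 and their depth is unknown. The sums per mouse were 562431 to 639142.

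Diets were compared on log2(FPKM + 0.1) by limma 3.58.1 under R 4.3.3 (variance trend, no covariate, two-sided, Benjamini-Hochberg over 13982 genes with a mean of at least 1 and no 0). The other 14 genes were left out. Fold changes on this scale understate changes of low genes. Exact permutation used all 70 assignments. The procedure was tested on simulated data in which genes varied independently and few were changed. That test does not cover differences that genes share, nor a share called as high as here. Python 3.11.15, pandas 2.3.3 and scipy 1.17.1 were used otherwise. Coordinates come from GENCODE M21 (GRCm38, later than M17) and promoters from RefSeq. The members and the 20 gene lists were chosen with earlier results of these data known. Genes were named by a rule: the 7 members, up to 4 called genes with the largest differences (otherwise the most abundant 2) in each mural, pathway and endothelial list, all relatives of the members, and the 5 genes most like each set. Of other cell types counts are given, and further genes were named after their values were seen. Alternatives were other constants, filters, scalings, no trend, the replicate block, 3 covariates and leaving out mice.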

Additional observations from a re-analysis of the deposited data

Results flagged for a closer look

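In groups of 4 mice, 10 of 128 groups from 64 genes held a mouse whose gap to the others exceeded Dixon's 95% critical value, where chance flags about 1 in 20. Among the 7 mural genes, these were HFD mouse 2 for Acta2, at 7 FPKM against 5.2 to 5.5 in the other 3 mice, and normal mouse 3 for Kcnj8, at 1.9 against 2.3 in each of the others. Rounding to 0.1 FPKM makes equal values common at the level of Kcnj8. HFD mouse 3 stood apart for Plat (14.4), Pdgfra (13.3), Notch3 (1.4) and Mylk (1.4). Normal mouse 1 did so for Itm2a (27.1) and Cldn5 (26.4), normal mouse 3 for Pdgfb (6.4) and normal mouse 4 for Igf2 (9.4).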

How the results depend on the processing

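The depth of these values is unknown, so counting error cannot be separated from the spread between mice, and with 4 mice per diet the folds outside the intervals are the limit of what the 6 uncalled mural genes show. Diet and tissue composition move together, and the 3 list means used as covariates differ between the diets themselves. Other constants, scalings and the fit without trend left Rgs5 called. The replicate numbers did not pair the mice (correlations of -0.04, -0.03, -0.11 and -0.07 for equal numbers). With the replicate block Rgs5 was at -0.27 (adjusted p = 0.0591 from limma), and calls fell to 0 of the 7 mural genes, 2 of the ligand and receptor list, 1 channel subunit, 7 regulators of contraction and 5 endothelial genes. With the endothelial mean as covariate the differences were 0.0484 for Pdgfrb, -0.11 for Rgs5, 0.0608 for Vtn, 0.25 for Acta2 and 0.20 for Myl9, and with the striatal mean 0.31, 0.55, 0.0118, 0.90 and 1.07. Both gave 0 calls in the 7 genes and each mural, pathway and endothelial list, as they gave 12 and 0 over all genes. With the cerebellar mean Rgs5 stayed called (-0.44, adjusted p = 0.0457 from limma), Vtn was at 0.0031 and Acta2 at 0.0721, and 1 other pericyte gene, 0 smooth muscle genes, 2 ligands and receptors, 0 channel subunits, 1 regulator of contraction, 2 vitronectin partners and 3 endothelial genes were called, of 899 over all genes. With only normal mice 1 and 4, chosen after seeing the data, Rgs5 stayed called (-0.31, adjusted p = 0.0489 from limma), Acta2 was at 0.0904 and Myl9 at 0.0247, and 0 channel subunits, 4 regulators, 2 vitronectin partners and 5 endothelial genes were called. A mean FPKM of at least 5 left 1 smooth muscle gene called and gave no value for Tagln and Kcnj8, and without trend 6 regulators were called. Leaving out 1 mouse gave differences of -0.12 to 0.0137 for Pdgfrb, -0.32 to -0.20 for Rgs5, -0.15 to -0.08 for Vtn, -0.15 to 0.0212 for Acta2, 0.05 to 0.31 for Tagln, -0.31 to -0.11 for Kcnj8 and -0.10 to 0.0248 for Myl9, with 0 to 1 of the 7 called. Counts then ranged from 3 to 4 for other pericyte genes, 3 to 5 for smooth muscle, 2 to 4 for ligands and receptors, 0 to 2 for channel subunits, 4 to 12 for regulators, 2 to 4 for vitronectin partners and 6 to 9 for endothelial genes. The channel count of 2 was 1 without normal mouse 2 or 3 or HFD mouse 3 and 0 without HFD mouse 2, and the endothelial count was lowest without normal mouse 3 or HFD mouse 1, 3 or 4.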
